A study of Mus musculus with 3 samples.

Results

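The genes described here are 9 regulators and markers of hair follicle stem cells, Sox9, Lhx2, Nfatc1, Tbx1, Lgr5, Lgr6, Tcf7l1, Tcf7l2 and Cd34. They were chosen by name, with earlier results of these data known, and matched on the gene symbol. All 9 were found at all 3 ages, out of 21885 gene rows in all. RNA was sequenced from whole skin of mice of the inbred strain FVB, wild type per the file headers, before birth (E18.5, embryonic day 18.5), after birth (P3, postnatal day 3) and in the adult (10 weeks). The labels name no treatment and no further allele. According to the design text each age had 2 biological replicates, but the tables used here give 1 averaged value per gene and age, so the spread between animals is unknown and the comparisons are made without a test.

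Hair follicles grow down from the epidermis before and around birth and afterwards pass through cycles of growth, regression and rest. The stem cells that renew them lie in the bulge, a part of the outer root sheath below the sebaceous gland, and in the isthmus above it. Wnt signals, read in the nucleus by beta-catenin and the TCF/LEF factors, set off new growth, while BMP signals and the calcium-dependent NFAT pathway hold bulge cells at rest. Sox9, Lhx2, Nfatc1 and Tbx1 encode transcription factors of these cells. Lgr5 and Lgr6 encode receptors for R-spondins, secreted proteins that strengthen Wnt signals, and mark the lower bulge and hair germ and the isthmus respectively. Tcf7l1 and Tcf7l2 encode TCF factors that can repress Wnt targets, and Cd34 encodes a surface sialomucin by which mouse bulge cells are sorted.

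Levels are in FPKM, fragments scaled to transcript length and to the mapped fragments of the library, a unit that allows genes to be compared within an age. Differences between ages are given on a log2 scale after adding 1 to each FPKM, later minus earlier age, so that small levels weigh less and their changes are understated. "Higher" and "lower" mean 2-fold or more on that scale, and the genes compared had to reach 1 FPKM at some age. Depth is unknown, so the precision of single values cannot be stated.

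In the tables, which use mouse genome build mm9, Sox9 lies on chromosome 11 (112643524 to 112649071), Lhx2 on chromosome 2 (38206828 to 38225248) and Tbx1 on chromosome 16 (18581806 to 18587062). Lgr5 lies on chromosome 10 (114887370 to 115024836), Lgr6 on chromosome 1 (136882930 to 137001853), Tcf7l1 on chromosome 6 (72576374 to 72738950), Tcf7l2 on chromosome 19 (55816300 to 56008145) and Cd34 on chromosome 1 (196765015 to 196803153). Apart from Cd34, the listed span of no member overlapped another gene row. Cd34 shared its whole listed span with the row C030002c11rik, which had 5.88, 1.79 and 21.1 FPKM at the 3 ages, so reads could be divided between the rows and the level of Cd34 is uncertain to that extent.

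Of the 9 genes, 4 passed 2-fold in at least 1 comparison: Cd34, Tbx1, Lhx2 and Lgr6. The sequence before the annotated start of each is shown because these are the genes whose level differed, Cd34 in the opposite direction to the others. Each line gives the 250 bases upstream of the start, 5′ to 3′ on the gene's strand, from RefSeq on build GRCm38.p6, with CG dinucleotides in capitals. For Lhx2 and Tbx1, each with 2 annotated starts, the upstream start is shown. The mm9 spans were not converted to this build, so which start belongs to the measured row was not determined.
Cd34, chr1:194938571-194938820, plus strand: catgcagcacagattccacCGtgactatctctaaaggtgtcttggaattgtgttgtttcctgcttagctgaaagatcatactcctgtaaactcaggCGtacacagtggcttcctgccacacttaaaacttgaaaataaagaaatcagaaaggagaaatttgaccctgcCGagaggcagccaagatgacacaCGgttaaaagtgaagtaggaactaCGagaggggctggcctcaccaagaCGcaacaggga
Tbx1, chr16:18590672-18590921, minus strand: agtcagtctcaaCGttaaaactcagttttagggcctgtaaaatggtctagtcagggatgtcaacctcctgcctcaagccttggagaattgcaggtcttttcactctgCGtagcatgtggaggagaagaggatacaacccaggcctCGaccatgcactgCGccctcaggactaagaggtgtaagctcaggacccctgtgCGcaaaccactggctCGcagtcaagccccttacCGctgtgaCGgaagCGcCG
Lhx2, chr2:38339031-38339280, plus strand: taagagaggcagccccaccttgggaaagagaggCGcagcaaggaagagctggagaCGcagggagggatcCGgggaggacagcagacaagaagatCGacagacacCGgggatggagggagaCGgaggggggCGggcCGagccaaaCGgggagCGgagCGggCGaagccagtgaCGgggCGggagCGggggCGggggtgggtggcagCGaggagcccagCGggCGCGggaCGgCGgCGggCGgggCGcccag
Lgr6, chr1:135105277-135105526, minus strand: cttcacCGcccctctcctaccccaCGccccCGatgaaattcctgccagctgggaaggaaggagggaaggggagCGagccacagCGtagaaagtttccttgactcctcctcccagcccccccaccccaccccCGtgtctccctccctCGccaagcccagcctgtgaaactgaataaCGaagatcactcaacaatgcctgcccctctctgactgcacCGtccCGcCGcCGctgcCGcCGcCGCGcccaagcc

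The Cd34 stretch held 6 CG dinucleotides, equal to the median of 6 over 32851 windows of this length, and had a GC content of 46.4% against a median of 52.4%. Lgr6 held 16 and had 65.2% GC. The upstream Lhx2 window held 25 with 72.8% GC and its other window 24 with 68.4% GC. The upstream Tbx1 window held 10 with 54.4% GC and its other window 17 with 67.2% GC. Tcf7l1 and Tcf7l2 were also matched in the RefSeq promoter table, with 29 CG dinucleotides for Tcf7l1 and 30 and 7 for the 2 starts of Tcf7l2. No window was used for Sox9, Lgr5 and Nfatc1. The core letters read by TCF/LEF factors, CTTTG, were searched on both strands. They occurred in 4 of the 9 windows of these 6 genes, at 1 of 2 Lhx2 starts, at the Tcf7l1 start and at both Tcf7l2 starts, and in 48.6% of all windows. In the 4 stretches printed above they did not occur, which says only that these letters are not in these bases. The Lhx2 window that held them is the one not printed.

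**Figure D1:**
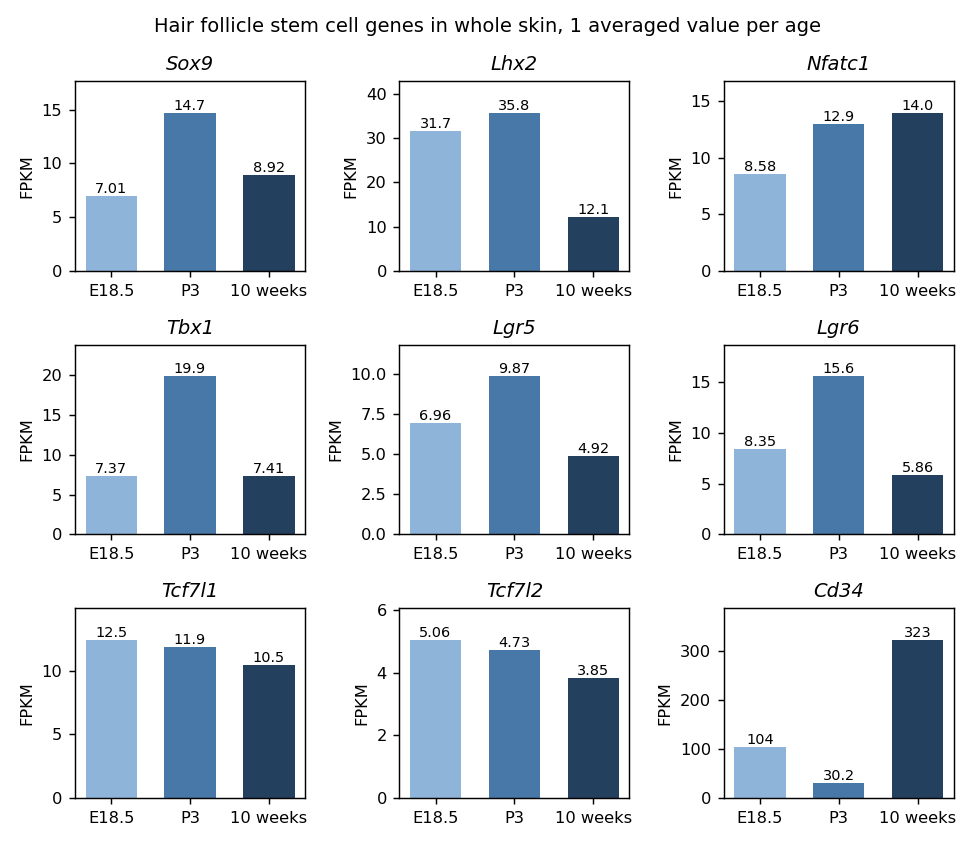
FPKM of each of the 9 genes (vertical axis, from 0, own scale per panel) at E18.5, P3 and 10 weeks; each bar is the 1 averaged value of an age. Sox9, Lhx2, Tbx1, Lgr5 and Lgr6 have their tallest bar at P3 in these deposited values, while Cd34 has its shortest there (30.2 FPKM) and its tallest at 10 weeks (323 FPKM).

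All 9 genes were detected at every age, and apart from Cd34 and Lhx2 they lay between 3.85 and 19.9 FPKM. At E18.5 the order of levels was Cd34, Lhx2, Tcf7l1, Nfatc1, Lgr6, Tbx1, Sox9, Lgr5 and Tcf7l2. The values from Nfatc1 down to Lgr5 ran only from 8.58 to 6.96 FPKM, and no spread is known by which such neighbours could be told apart. At P3 Lhx2 stood first, followed by Cd34, Tbx1, Lgr6 and Sox9. At 10 weeks Cd34 stood far above the rest, at 26.7 times the FPKM of Lhx2 against 3.29 times at E18.5 and 0.843 times at P3, and Nfatc1 was now the next highest. Tcf7l2 had the lowest level of the 9 at each age. Among genes that reached 1 FPKM at any age, Cd34 exceeded 94.9%, 79.5% and 98.0% of genes at the 3 ages, and Lhx2 exceeded 83.3%, 82.8% and 53.4%.

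From E18.5 to P3, 1 of the 9 genes was higher, Tbx1, and 1 was lower, Cd34. Over all 14653 genes compared, 19.0% passed 2-fold (9.56% higher and 9.42% lower), so the share of members called was close to the background. The median difference of the 9 was 0.45, against 0.03 over all genes. From P3 to 10 weeks, 1 was higher, Cd34, and 3 were lower, Lhx2, Lgr6 and Tbx1, so that 4 of 9 passed 2-fold where 29.8% of all 14655 genes did (19.8% higher and 9.98% lower). The median of the 9 was -0.66, against 0.14 over all genes. From E18.5 to 10 weeks, Cd34 was higher and Lhx2 lower, where 23.0% of 14659 genes passed 2-fold (16.1% higher and 6.92% lower), and the medians were -0.23 for the 9 and 0.22 for all genes. These shares over all genes are also the background for the counts of other gene lists below. The comparisons share ages, so each P3 value enters the first and second with opposite sign.

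A few facts of the tables touch these counts. Xist went from 0.0433 FPKM before birth to 64.6 and 73.0 after it, while the Y-linked Ddx3y stood at 24.1 and 0.0218 FPKM and was then listed at 0, so age and sex pattern cannot be told apart in comparisons with E18.5. Scaling on the median of ratios moved log2 ratios by -0.12, -0.10 and -0.22 in these comparisons, in the order given, and no call among the 9 genes changed with it. With upper-quartile scaling, 37.4% of all calls from E18.5 to P3 were higher in place of 50.4%, and from E18.5 to 10 weeks 57.0% in place of 69.9%. The calls of the 9 genes stayed as they were, though the small Lhx2 difference from E18.5 to P3 turned from 0.17 to -0.04. The Tbx1 difference from E18.5 to 10 weeks turned from 0.01 to -0.26, and to -0.19 with the median of ratios. Scaling to basal keratinocyte markers, described with Tbx1, changed the calls of the 9 genes to 0 higher and 3 lower from E18.5 to P3 and to 2 higher and 0 lower from P3 to 10 weeks. The skin label was checked on basal keratinocyte keratins, Krt5 at 1058, 2638 and 816 FPKM and Krt14 at 952, 2439 and 646 FPKM at the 3 ages. These are bulk samples of whole skin, in which fewer cells of a type and less RNA per cell cannot be told apart.

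**Figure D2:**
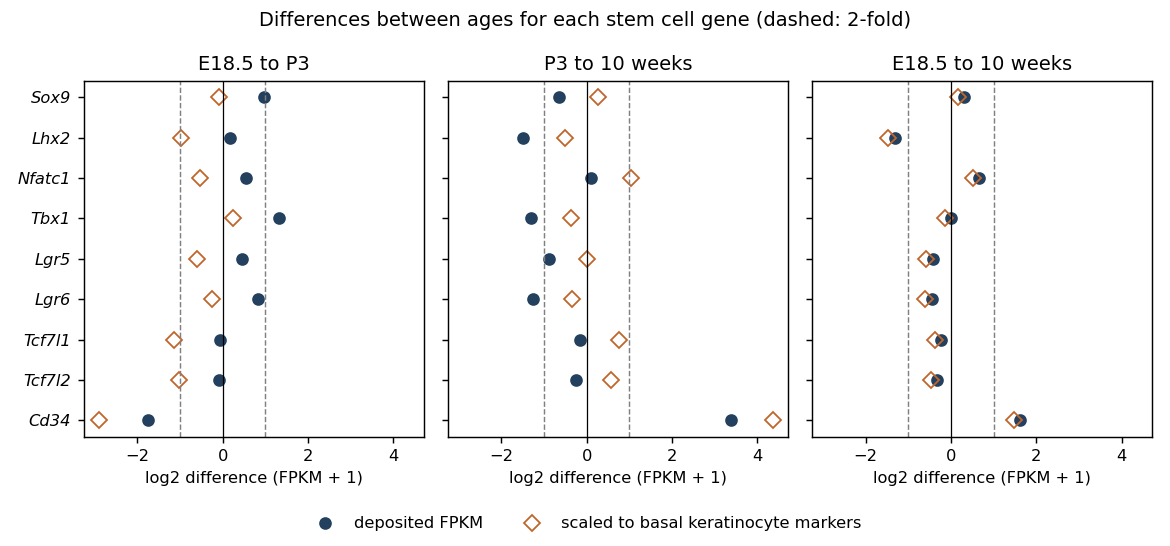
Log2 difference of FPKM + 1 (horizontal axis) for each of the 9 genes in each pair of ages; filled circles use the deposited FPKM, open diamonds the values scaled to basal keratinocyte markers, and dashed lines mark 2-fold. With the deposited values Tbx1 and Cd34 lie past a dashed line from E18.5 to P3; after scaling, Tbx1 lies at 0.24 and Cd34 is still past it.

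Sox9, needed in mice to set aside the early follicle stem cells and later expressed in the bulge and outer root sheath, had levels of 7.01 (E18.5), 14.7 (P3) and 8.92 FPKM (10 weeks). The P3 value was the highest and the other 2 lay close together. The log2 difference from E18.5 to P3 was 0.97, just short of 2-fold, and that from P3 to 10 weeks was -0.66. With a pseudocount of 0.1 in place of 1 the first came to 1.06, past 2-fold. Sox9 is also a factor of cartilage, and the main cartilage collagen gene, Col2a1, stood at 0.0445, 0.139 and 0.0149 FPKM. The 10 cartilage markers summed to 7.64, 13.3 and 4.37 FPKM at the 3 ages, of which Col11a1, also made outside cartilage, gave 3.06, 8.69 and 1.41. Of the 10, 4 reached 1 FPKM at some age, and their part in the Sox9 level was not tested. Sox10, the related factor of Schwann cells and melanocytes, stayed between 5.31 and 5.93 FPKM, and Sox8 was below 1 FPKM at each age. Sox9 thus made up 54.3%, 70.9% and 58.8% of the summed FPKM of Sox8, Sox9 and Sox10.

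Other SOX genes of skin, 12 of 13 of which reached 1 FPKM, went in both directions. From E18.5 to P3, 1 was higher, Sox21, a factor of hair shaft cuticle (6.98 to 23.9 FPKM), and 3 were lower, among them Sox18, a vessel factor that also acts in hair development (45.7 to 12.2 FPKM). From P3 to 10 weeks 1 was higher and 3 lower, with Sox4 at 29.3 and then 8.83 FPKM and Sox21 at 9.37 FPKM in the adult. Their median differences were 0.03 and -0.32, against 0.03 and 0.14 over all genes. Sox2, carried by the dermal papilla of some hair types, stood at 1.14, 0.417 and 0.491 FPKM.

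Lhx2, a LIM-homeodomain factor of the follicle bud and bulge, had levels of 31.7 (E18.5), 35.8 (P3) and 12.1 FPKM (10 weeks). The skin around birth was thus high at both ages and the adult low. The log2 difference was 0.17 from E18.5 to P3, then -1.49 to 10 weeks, and -1.32 over the whole span, the last 2 past 2-fold. Proliferation genes had the same order of ages in their sum, though some, such as Cdk1 (34.0, 25.8 and 4.32 FPKM), were highest at E18.5. Of 12, 0 passed 2-fold from E18.5 to P3 and 11 were lower from P3 to 10 weeks, with a median of -2.53. The mitosis gene Cdc20 stood at 42.8 FPKM at P3 and 4.89 in the adult. The summed level of the 12 was 534, 580 and 171 FPKM at the 3 ages, and their part in the Lhx2 difference was not tested. The genes nearest to Lhx2 in pattern over the 3 ages, by Euclidean distance between centred log2 values among 11596 other genes, were the DNA helicase gene Blm, the replication gene Mcm3 and the centromere gene Cenph. With 3 values per gene such likeness is weak, and 70 genes lay within a distance of 0.25.

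Of 10 listed genes of LIM-domain adaptors, LIM-only proteins and other LIM-homeodomain factors, 8 reached 1 FPKM, and they went in both directions. Ldb1, the widely expressed adaptor that binds LIM domains, stood at 58.8, 63.0 and 50.7 FPKM. Lmo1, a LIM-only protein, stood at 37.8, 45.7 and 11.8 FPKM and was lower in the adult, as Lhx2 was. Lmo2, which vessels and blood progenitors express, went the other way, with 12.0, 6.17 and 35.4 FPKM, and Ldb2 stood at 10.7, 2.76 and 13.6 FPKM. From P3 to 10 weeks 3 of the 8 were higher and 1 lower, with a median of 0.81 against 0.14 over all genes.

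Nfatc1, the calcineurin-regulated factor that keeps bulge cells at rest, had levels of 8.58 (E18.5), 12.9 (P3) and 14.0 FPKM (10 weeks). It was alone among the 9 in having each age above the one before, but by less than 2-fold in deposited FPKM: 0.54 from E18.5 to P3, then 0.10 to 10 weeks, and 0.64 over the whole span. Relative to basal keratinocyte markers the first of these came to -0.52 and the second to 1.03, past 2-fold. Among its relatives, Nfatc2 had the same order of ages, with 1.70, 1.93 and 6.24 FPKM, and was higher in the adult than at both other ages. Nfatc3 stood at 14.8, 21.7 and 16.7 FPKM. Nfatc4 stood at 12.5, 3.98 and 7.21 FPKM and was lower at P3 than before birth. Nfatc1 made up 22.9%, 31.9% and 31.7% of the summed FPKM of the 4 genes at the 3 ages.

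Among 18 other genes of the NFAT and calcineurin pathway, 0 were higher and 1 was lower from E18.5 to P3. From P3 to 10 weeks 4 of the 18 were higher and 0 lower. Over all genes 19.8% were higher in that comparison, so the share called higher was close to the background. The medians of the 18 were 0.03 and 0.61, against 0.03 and 0.14 over all genes. Rcan2, a calcineurin inhibitor, stood at 1.26, 0.408 and 10.1 FPKM, and Ppp3cc, a catalytic subunit of calcineurin, at 3.28, 3.07 and 10.6 FPKM. Both are also made in other tissues of a skin sample. Skeletal muscle markers moved from P3 to 10 weeks, 10 of 10 higher with a median of 6.79 and a summed level of 335 FPKM at P3 and 19894 at 10 weeks. Their part in the calcineurin values was not tested.

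Tbx1, a T-box factor linked to self-renewal of bulge cells, had levels of 7.37 (E18.5), 19.9 (P3) and 7.41 FPKM (10 weeks). P3 was high and the other ages were nearly equal in deposited FPKM. The log2 difference was 1.32 from E18.5 to P3 and -1.31 from P3 to 10 weeks, both past 2-fold, and 0.01 from E18.5 to 10 weeks. The 4 T-box relatives that reached 1 FPKM had their lowest value at P3 instead. Tbx15, a dermal factor, stood at 20.6, 8.48 and 33.9 FPKM, Tbx2 at 3.47, 1.44 and 2.24 FPKM and Tbx3 at 1.42, 0.485 and 2.17 FPKM. Of these 4, 0 were higher and 2 lower from E18.5 to P3, and 2 were higher and 0 lower at 10 weeks than at P3. Tbx1 therefore made up 19.9%, 62.5% and 15.2% of the summed FPKM of 7 T-box genes at the 3 ages. Nearest to it in pattern were Sh3bgrl2, the polarity gene Pard6g and Snora21, a small RNA gene whose FPKM is unreliable, with 181 genes within a distance of 0.25.

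Basal keratinocyte markers had their highest level at P3 as well: 7 of 12 were higher and 0 lower from E18.5 to P3, with a median of 1.22, and 0 were higher and 5 lower from P3 to 10 weeks, with a median of -0.80. Examples are the cadherin genes Dsg3 (9.30 to 35.1 FPKM from E18.5 to P3) and Cdh3 (38.7 to 5.10 FPKM from P3 to 10 weeks). Their summed level was 2195, 5477 and 1716 FPKM at the 3 ages. Genes of the hair matrix, shaft and inner root sheath moved further, with 13 of 14 measured at both ages higher and then 14 of 14 lower, medians of 3.50 and -4.10 and sums of 284, 4926 and 274 FPKM. Relative to the geometric mean of the basal markers, the 9 genes looked different. Of the 6 members above 0 from E18.5 to P3, only Tbx1 remained above 0, at 0.24, and Lhx2 came to -0.97, Sox9 to -0.09 and Lgr6 to -0.25. From P3 to 10 weeks the differences of Lhx2, Tbx1 and Lgr6 came to -0.52, -0.38 and -0.35, no longer past 2-fold, and Nfatc1 came to 1.03. Whether the share of keratinocytes accounts for the values was not tested.

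Lgr5, the R-spondin receptor of the lower bulge and hair germ, had levels of 6.96 (E18.5), 9.87 (P3) and 4.92 FPKM (10 weeks). Lgr6, its relative of the isthmus, stood at 8.35, 15.6 and 5.86 FPKM. Lgr4, the widely expressed receptor of this family, stood at 15.1, 21.6 and 10.6 FPKM. In each of the 3 the P3 value was the highest and the adult value the lowest in deposited FPKM; relative to the basal markers Lgr5 came to -0.59 from E18.5 to P3 and 0.0048 from P3 to 10 weeks. Between E18.5 and P3 all 3 receptors stayed under 2-fold, at 0.45, 0.82 and 0.49 for Lgr5, Lgr6 and Lgr4. From P3 to 10 weeks Lgr6 was lower, at -1.27, a call lost with a pseudocount of 5 (-0.92), while Lgr5 at -0.88 and Lgr4 at -0.96 did not pass. Lgr5 and Lgr4 fell short by little, and before 1 was added the adult FPKM of Lgr5 was 0.498 times that at P3. The FPKM of Lgr6 was 1.20, 1.58 and 1.19 times that of Lgr5 at the 3 ages. Of the summed level of the 3 receptors Lgr4 gave 49.7%, 45.9% and 49.7% at the 3 ages, Lgr5 22.9%, 21.0% and 23.0%, and Lgr6 27.5%, 33.1% and 27.4%. The proportions of the receptors were thus nearly the same before birth and in the adult.

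Ligands and regulators of these receptors were mostly low. Of 7 genes listed with this pathway, Lgr4 among them, 6 reached 1 FPKM. Of these, 0 passed 2-fold from E18.5 to P3, and 0 were higher and 1 lower from P3 to 10 weeks, with medians of 0.57 and -0.59. Rspo3, an R-spondin of the dermis, stood at 6.96, 3.04 and 2.30 FPKM and Rspo1 at 6.42, 4.06 and 6.03 FPKM. Znrf3, a ubiquitin ligase that removes Wnt receptors and is itself held back by R-spondin and LGR proteins, stood at 3.69, 6.41 and 2.55 FPKM and was lower in the adult than at P3. The related ligase Rnf43 stood at 4.47, 7.83 and 3.76 FPKM. Nearest to Lgr6 in pattern were Lgals7, a galectin of stratified epithelia, Cnot6l and Jub, with 163 genes within a distance of 0.25.

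Tcf7l1, the TCF factor of resting bulge cells, had levels of 12.5 (E18.5), 11.9 (P3) and 10.5 FPKM (10 weeks). Tcf7l2 stood at 5.06, 4.73 and 3.85 FPKM. Both had nearly level values, the highest age at 1.19 times the lowest for Tcf7l1 and 1.32 times for Tcf7l2, and neither passed 2-fold in any comparison. Relative to the basal markers both came to below -1 from E18.5 to P3, at -1.13 and -1.03. The FPKM of Tcf7l1 was 2.46, 2.51 and 2.72 times that of Tcf7l2 at the 3 ages.

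The other members of the family were not level. Lef1, the activating factor of the hair matrix and dermal papilla, stood at 9.27, 17.1 and 1.66 FPKM, and was lower in the adult than at P3 (-2.76) and E18.5 (-1.95). Tcf7 stood at 10.6, 11.6 and 4.62 FPKM, and was also lower in the adult than at P3 (-1.16) and E18.5 (-1.05). The summed level of the 4 genes was 37.4, 45.3 and 20.6 FPKM. Tcf7l1 made up 33.3%, 26.3% and 50.8% of it, Tcf7l2 13.5%, 10.5% and 18.7%, and Lef1 24.8%, 37.7% and 8.06%. Of the family's summed FPKM in adult skin, the larger part was therefore from Tcf7l1 and Tcf7l2, whereas at both earlier ages the larger part was from Lef1 and Tcf7.

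**Figure D3:**
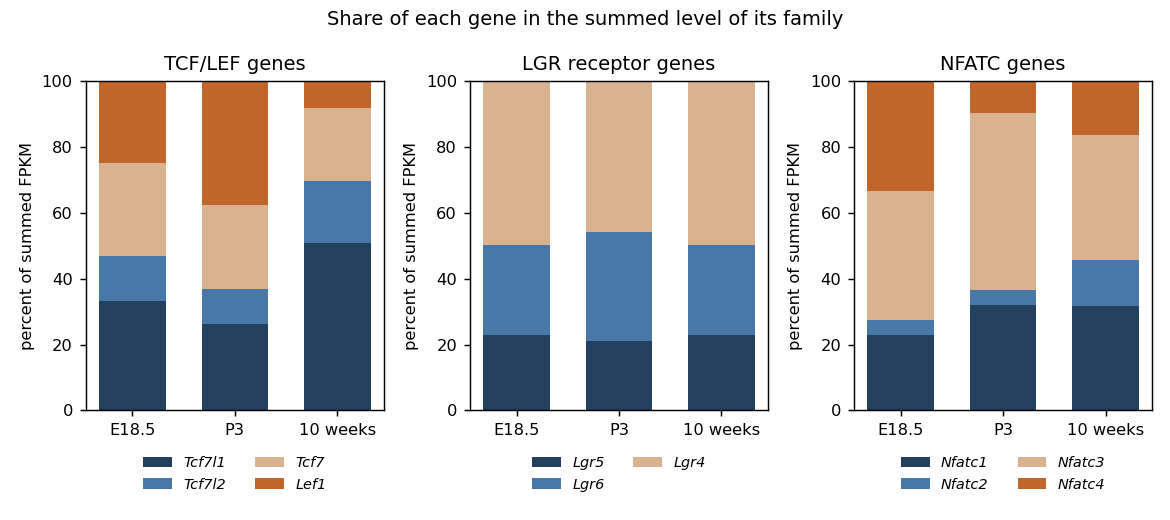
Percent of the summed FPKM (vertical axis) that each gene gave within its family at E18.5, P3 and 10 weeks, for the TCF/LEF, LGR receptor and NFATC genes. Tcf7l1 takes 50.8% of the TCF/LEF sum at 10 weeks against 26.3% at P3, while the LGR shares at E18.5 and 10 weeks are nearly equal.

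Among 20 partners and targets of TCF/LEF factors, Lef1 and Tcf7 included, 2 were higher and 0 lower from E18.5 to P3, and 0 were higher and 5 lower from P3 to 10 weeks, with medians of 0.23 and -0.45 against 0.03 and 0.14 over all genes. Ctnnbip1, an inhibitor that blocks the binding of beta-catenin to TCF, stood at 27.9, 68.3 and 13.1 FPKM, and the corepressor Tle3 at 18.6, 41.1 and 16.0 FPKM. Axin2, a widely used readout of Wnt signalling, stood at 10.7, 11.9 and 9.02 FPKM and passed 2-fold nowhere. Beta-catenin itself, Ctnnb1, stood at 350.3, 388 and 213 FPKM.

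Cd34, the surface marker of bulge cells that endothelial cells, dermal fibroblasts and mast cells carry as well, had levels of 104 (E18.5), 30.2 (P3) and 323 FPKM (10 weeks). In deposited FPKM it was the only gene of the 9 with its lowest level at P3, and the adult value was the highest by far. Relative to the basal markers, Sox9, Nfatc1, Lgr5, Tcf7l1 and Tcf7l2 had their lowest level at P3 as well. The log2 difference of Cd34 was -1.76 from E18.5 to P3, then 3.38 to 10 weeks, and 1.62 over the whole span. Each was past 2-fold with every scaling and pseudocount tried. Its FPKM at 10 weeks was 10.7 times that at P3.

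Markers of the other cell types that carry Cd34 moved from E18.5 to P3 and from P3 to 10 weeks. Endothelial markers were lower in 11 of 12 cases from E18.5 to P3, with a median of -1.49, and higher in 8 of 12 from P3 to 10 weeks, with a median of 1.35; the vessel gene Emcn stood at 15.5, 3.37 and 20.4 FPKM. Their summed level was 274, 88.9 and 236 FPKM. Fibroblast markers were lower in 9 of 12 and then higher in 10 of 12, with medians of -1.39 and 2.28 and sums of 3652, 1345 and 6117 FPKM. Pi16 and Ly6a, genes of adventitial and deep dermal fibroblasts, stood at 15.3, 8.28 and 208 FPKM and at 98.7, 41.4 and 855 FPKM. Mast cell markers were lower in 5 of 8 and then higher in 7 of 8, with sums of 953, 98.0 and 544 FPKM and Cpa3 at 331, 23.1 and 148 FPKM. No marker of these 3 lists was at 0 at any age. These directions were not particular to the 3 lists. Adipocyte markers were lower in 9 of 10 cases, with 1 higher, and then higher in 10 of 10, with medians of -1.73 and 2.66. Skeletal muscle markers were lower in 9 of 10 and then higher in 10 of 10, with medians of -2.69 and 6.79. Relative to the geometric mean of the fibroblast markers, Cd34 differed by -0.51, 0.95 and 0.43 in the 3 comparisons, in the same order. Relative to the endothelial markers the differences were -0.30, 1.97 and 1.67, and relative to the mast cell markers 0.44, 1.50 and 1.94. Over the whole span, E18.5 to 10 weeks, the 3 lists differed. Of 12 endothelial markers 1 was higher and 0 lower, with a median of -0.28. Of 12 fibroblast markers 6 were higher and 2 lower, with a median of 1.15. Of 8 mast cell markers 2 were higher and 3 lower, with a median of -0.51. Over all genes 16.1% were higher and 6.92% lower. The part of any of these cell types in the Cd34 level was not tested. Nearest to Cd34 in pattern were Ms4a6c, a gene of myeloid cells, Myadml2 and Ppp1r1a, with 25 genes within a distance of 0.25.

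**Figure D4:**
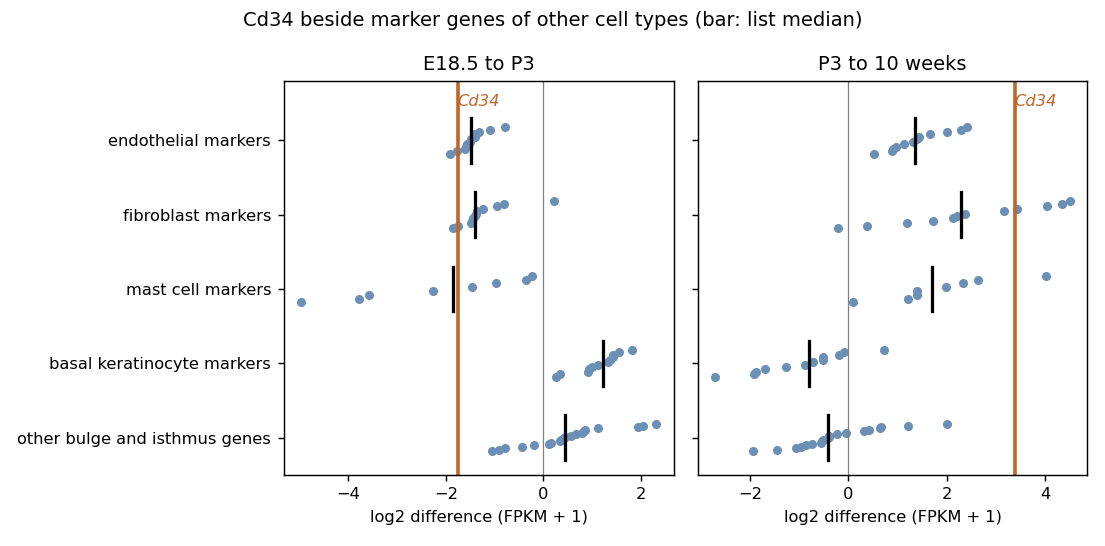
Log2 difference of FPKM + 1 (horizontal axis) from E18.5 to P3 and from P3 to 10 weeks for the genes of 5 marker lists; points are genes, black bars list medians and the vertical coloured line is Cd34. Cd34 (-1.76, then 3.38) lies among the endothelial, fibroblast and mast cell points on the left and within the range of the fibroblast and mast cell points on the right, outside the range of the basal keratinocyte and other bulge genes in both. Adipocyte and skeletal muscle markers, most of which moved in the same directions as Cd34, are not shown.

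Other genes of the bulge, isthmus and junctional zone, listed by name, went in both directions. Of 20, 4 were higher and 1 lower from E18.5 to P3, where 9.56% and 9.42% of all genes were. From P3 to 10 weeks 2 were higher and 3 lower, where 19.8% and 9.98% of all genes were. The medians were 0.43 and -0.40, near the 0.45 and -0.66 of the 9 genes. Krt15, a keratin abundant in the bulge, stood at 488, 726 and 969 FPKM, and Cd34 was at 0.214, 0.0416 and 0.334 times its FPKM. Lrig1, which marks the junctional zone and holds back growth factor receptors, stood at 40.5, 54.4 and 29.6 FPKM. Plet1, a marker of the isthmus listed under its older symbol 1600029D21Rik, stood at 6.03, 33.7 and 25.6 FPKM. Krt79, a keratin of the upper follicle, stood at 151, 622 and 299 FPKM. Prdm1, a marker tied to the sebaceous gland and inner root sheath, stood at 9.32, 21.5 and 4.84 FPKM. Gli1, a Hedgehog target of the upper bulge and of growing follicles, stood at 34.9, 19.7 and 6.64 FPKM, whereas Sfrp1, a Wnt inhibitor of the bulge, stood at 6.53, 12.1 and 29.4 FPKM and Fgf18, a growth factor of resting follicles, at 2.88, 1.84 and 10.4 FPKM. In the adult, then, Sfrp1 and Fgf18 were higher and Gli1 lower than at both earlier ages. Wif1, another Wnt inhibitor of the list, went the other way from Sfrp1, at 33.9, 17.5 and 8.42 FPKM. From E18.5 to 10 weeks 5 of the 20 were higher and 3 lower, where 16.1% and 6.92% of all genes were. The median was 0.22, as over all genes.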

How the data were processed

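RNA from whole FVB mouse skin at 3 ages was sequenced after Trizol extraction and TruSeq library preparation from 1 ug of total RNA, per the labels' protocols. Per the file headers, the deposited values are FPKM averaged over each age by the authors. The tools were TopHat2 2.0.7 and Cufflinks 2.1.1, on build mm9, per the submitters' processing notes. Annotation, strand setting and depth: not given in the sources used here.

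Values marked as failed and listed at 0 (3 at E18.5, 7 at P3, none a member) were left out, and all member values carried the status OK. Differences used a pseudocount of 1, a minimum of 1 FPKM at any age and a threshold of 2-fold, with Python 3.11.15 and pandas 2.3.3, tested on simulated data. With 1 value per age no test was made. Starts were raised by 1, since end minus start equalled the hairpin length in 208 of 443 microRNA genes and end minus start plus 1 in 2. GRCm38 served only for promoters and older symbols, by which 2 of 232 listed genes were matched. The members and the gene lists were chosen with earlier results of these data known. Named were the members, a set of relatives and follicle markers (Lgr4, Lef1, Tcf7, Nfatc2, Nfatc3, Nfatc4, Sox2, Sox8, Sox10, Tbx2, Tbx3, Krt15, Lrig1), the 3 genes nearest in pattern for members past 2-fold, and per list and comparison up to 2 genes with the largest difference among those past 2-fold with 5 FPKM or more at 1 or more ages. Further genes (C030002c11rik, Xist, Ddx3y, Krt5, Col2a1, Ldb1, Axin2, Ctnnb1, Rspo1, Rnf43, Wif1) were named as background after their values were seen. Alternatives were other pseudocounts, scalings and filters. Basal scaling divided FPKM by the geometric mean of 12 markers before 1 was added, and Cd34 against other lists is its difference minus the mean difference of the list.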

Additional observations from a re-analysis of the deposited data

How the results depend on the processing

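No paired analysis was possible because each age has 1 averaged column, and for the same reason no replicate could be left out. Of 27 member differences, 27 kept their side of the 2-fold threshold with the median of ratios and 27 with the upper quartile. With a pseudocount of 0.1, 26 did (Sox9 passed from E18.5 to P3, at 1.06), and with 5 also 26 (Lgr6 from P3 to 10 weeks fell short, at -0.92). Scaling to the basal keratinocyte markers left 20 on their side, 4 falling short and 3 passing; the count of members called from P3 to 10 weeks then was 2 in place of 4, both higher (Nfatc1 and Cd34), because the basal markers themselves changed by 1.17 from E18.5 to P3 and -1.01 from P3 to 10 weeks. Over all genes, a pseudocount of 5 left 1468, 2494 and 1835 calls from E18.5 to P3, P3 to 10 weeks and E18.5 to 10 weeks, in place of 2781, 4371 and 3372, and basal scaling gave 6836 and 7781 in the first 2, of which 4.97% and 92.8% were higher. No filter, or a minimum of 5 FPKM, changed no count by over 1.5 times. Dropping the filter could add no call, since with 1 added a gene below 1 FPKM throughout cannot pass 2-fold. All members reached 5 FPKM at some age, so neither filter could change their counts. Depth is unknown, and values near 1 FPKM are the least reliable.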

Other observations

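Tissues around the follicle differed between the ages too. Dermal papilla markers, genes of the mesenchymal cells that signal to follicle stem cells, went both ways: 0 of 10 were higher and 2 lower from E18.5 to P3, and 3 were higher and 1 lower from P3 to 10 weeks. Fgf7, a growth factor of the papilla and dermis, stood at 3.02, 3.14 and 13.2 FPKM, and Fgf10 at 4.40, 1.60 and 6.33 FPKM. Alx4 of the same list went down instead, at 5.81, 3.30 and 1.36 FPKM. The median of the 10 from P3 to 10 weeks was 0.002. From E18.5 to 10 weeks 1 was higher and 3 were lower. Sebaceous gland markers, whose gland adjoins the isthmus, were higher in 6 of 10 cases and lower in 1 in both comparisons, with Awat2, a wax synthase, at 0.955, 7.25 and 125 FPKM. Adipocyte markers were lower in 9 of 10 and then higher in 10 of 10, with Car3 at 1898, 343 and 4023 FPKM. The pigment cell gene Mlana stood at 12.2, 81.8 and 4.77 FPKM.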
